A study of Caenorhabditis elegans with 22 samples.

Results

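The comparison described here asks what the loss of SET-25 added to gene expression in seam cells that already lacked MET-2. Its members are the 4 seam cell libraries of *met-2* and *met-2 set-25* larvae, out of 8 seam cell libraries and 22 samples in the series, and they were chosen by genotype alone. The series measured polyadenylated RNA from cells sorted by flow cytometry out of L3 larvae of *Caenorhabditis elegans* that had been synchronised at the L1 stage, with 2 biological replicates in each group. Seam cells were sorted from N2 (the wild type, WT), from larvae carrying *met-2(n4256)*, from larvae carrying *set-25(n5021)* and from the double mutant with both alleles, named *met-2 set-25*. Each seam cell strain also carried the seam cell reporter *wIs51[scm::gfp]* and the junction reporter *mjIs15[ajm-1::mCherry]*, and cells positive for both reporters were sorted after dead cells had been excluded. Body wall muscle of the same 4 genotypes was sorted from other strains and is used here only for contrast.

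MET-2 is a SETDB1-like enzyme that places mono- and dimethylation on lysine 9 of histone H3 (H3K9me1 and H3K9me2), and SET-25 is a G9a/SUV39H-like enzyme that places trimethylation (H3K9me3). Both marks are typical of silent chromatin, and double mutants of the *met-2* and *set-25* genes are known for the loss of detectable H3K9 methylation in embryos. Seam cells are lateral epidermal cells that divide in each larval stage, contribute nuclei to the hypodermal syncytium and secrete cuticle. In larvae many genes for cuticle collagens, moulting factors and hedgehog-related proteins are transcribed in waves, once in each larval stage.

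Levels are given as CPM, the count of a gene relative to its library total after scaling with TMM factors, which correct each library for its composition, in the order replicate 1 and replicate 2. The FDR (the p adjusted after Benjamini and Hochberg) had to be under 0.01 for a gene to be called higher or lower in the quasi-likelihood test of edgeR with a fitted change of more than 2-fold, and log2 changes are fitted values of *met-2 set-25* over *met-2* with their standard error (SE). The *met-2* libraries held 19962902 and 18895453 counts and the *met-2 set-25* libraries 24752059 and 20066977. At least 10 counts were reached by 11217 and 10804 genes in *met-2* and by 12898 and 12118 genes in *met-2 set-25*, and the 10 most abundant genes took 14.5% and 13.9% of the counts against 9.14% and 10.9%.

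The targeted genes were read first. *set-25* stood at 40.3 and 43.3 CPM in *met-2* and at 16.59 and 16.39 CPM in *met-2 set-25*, a log2 change of -1.34 ± 0.12 (SE; edgeR, adjusted p = 0.000424). The groups did not overlap, and the N2 libraries at 31.4 and 30.4 CPM lay between them. The fold fell short of the 2-fold threshold when libraries were scaled to their totals, with a log2 change of -0.96. *met-2* itself stood at 14.8 and 16.97 CPM in *met-2* and at 17.2 and 17.4 CPM in the double mutant, below the 37.2 and 36.9 CPM of N2, and did not pass the test between the mutants (log2 change 0.13 ± 0.14, edgeR adjusted p = 0.544). Counts were summed over all annotated exons of a gene, so reads from exons outside a deletion are still counted.

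Markers of seam cells and of epithelial junctions were read next. Of 13 seam cell markers 1 was lower (the hedgehog-related gene *wrt-2*) and none was higher, and their summed level was 4377 and 4193 CPM in *met-2* against 4490 and 6174 CPM in *met-2 set-25*. None of the 7 junction markers, which include *ajm-1*, passed the test. Markers of several other cell types differed between the groups, where 5.18% of all genes were called higher and 3.74% lower. None of 10 pharynx markers and none of 3 coelomocyte markers was called by edgeR or DESeq2, with 1 pharynx marker higher at an unadjusted p under 0.05. Of 8 hypodermis markers 1 was higher and 3 were lower, and their sum did not overlap between the groups, at 26850 and 26760 CPM in *met-2* and 8314 and 11390 CPM in *met-2 set-25*, a sum dominated by the collagen *sqt-3*. Of 12 intestine markers 4 were higher, and they summed to 196 and 111 CPM against 463 and 682 CPM. Of 14 germline markers 2 were higher, with sums of 213 and 203 CPM against 396 and 410 CPM. Of 5 tested glia markers 3 were higher, with sums of 88.9 and 90.8 CPM against 158 and 135 CPM, and *delm-1* and *delm-2* were at 0 in both *met-2* libraries. Body wall muscle markers, of which 1 of 18 was higher and 1 lower, summed to 13360 and 12850 CPM against 7852 and 10390 CPM. The myosin gene *unc-54* and the actin gene *act-4* dominated that sum, whereas the median change of the 18 was 0.37. Both *met-2 set-25* libraries lay above both *met-2* libraries for 13 of the 18, and for 5021 of all 12591 genes tested. In a sorted bulk sample fewer cells of a type and less RNA per cell cannot be told apart, and the part of other cell types in the results was not tested.

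Adding the loss of SET-25 changed genes in both directions. Of 12591 genes tested, 652 (5.18%) were higher and 471 (3.74%) were lower in *met-2 set-25* than in *met-2*. At an unadjusted p under 0.05 in edgeR, 2837 were higher and 2149 were lower, and such counts for single lists are to be read beside these. The median change of the higher genes was 2.09 and that of the lower genes -1.51 on the log2 scale, beside a median of 0.10 over all genes tested. Both *met-2 set-25* libraries lay on the called side of both *met-2* libraries for every called gene, and this held for 5021 genes above and 3864 below among all tested. Leaving 1 of these libraries out could therefore hardly reverse a called gene. A direction that is kept in such fits was largely fixed in advance and is no measure of how firm a call is. Scaling to library totals moved the median of all genes to 0.48 and gave 1360 higher and 248 lower genes, and the study's own fold rule, which adds a pseudocount of 8 to counts scaled by library totals, gave 773 and 290. Leaving out *met-2* replicate 1 left 120 higher and 247 lower genes, leaving out *met-2* replicate 2 left 51 and 172, leaving out *met-2 set-25* replicate 1 left 174 and 283, and leaving out *met-2 set-25* replicate 2 left 367 and 362. The direction of change of all 111 called genes named by the fixed rule was kept in each of the 13 alternatives that could be computed for them, and 20 of them also kept their call in each.

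**Figure D1:**
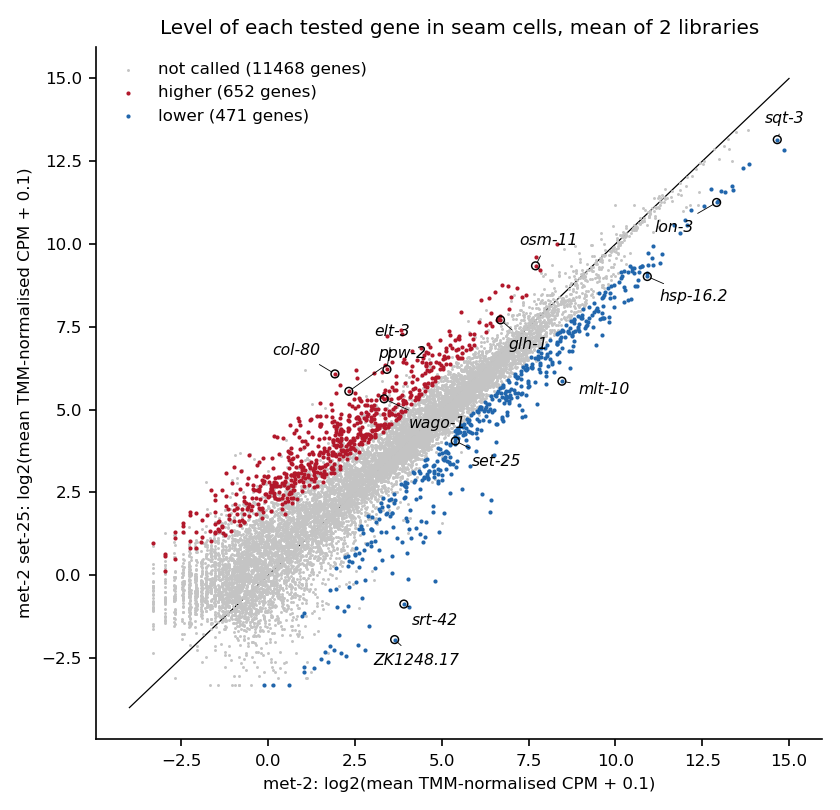
Mean level of each of 12591 tested genes in *met-2* (x axis) and *met-2 set-25* (y axis) seam cells, as log2 of the TMM-normalised CPM plus 0.1, with the line of equal levels. The 652 higher genes (red) spread mostly over low and middle levels, whereas the 471 lower genes (blue) reach the highest CPM (not corrected for gene length), as for *sqt-3* and *lon-3*, and circles mark genes described in the text.

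Among called genes that averaged at least 50 counts over the 4 libraries, the 12 largest rises were in genes of low level in *met-2*. They stood there at 0.053 to 1.00 CPM apart from *col-80*, and 3 of them (C29F3.3, T05A7.1 and *heri-1*) had at most 3 counts in both *met-2* libraries. *col-80*, a cuticle collagen, stood at 3.59 and 3.78 CPM in *met-2* and at 87.3 and 47.6 CPM in *met-2 set-25* (log2 change 4.19 ± 0.41, edgeR adjusted p = 0.000498). Its N2 libraries held 33.2 and 56.3 CPM and its *set-25* libraries 0.42 and 0.055 CPM, so the double mutant lay near N2 and both single mutants lay below it. The uncharacterised gene F12A10.1 followed the same order, with 9.06 and 22.1 CPM in N2, 0.32 and 0.34 CPM in *met-2*, at most 0.060 CPM in *set-25* and 10.3 and 6.53 CPM in *met-2 set-25*. *dod-3*, named as a gene downstream of DAF-16, rose from 1.00 and 0.17 CPM to 7.76 and 16.9 CPM. *heri-1*, whose product opposes inherited nuclear RNA interference, differed from these, since it was low in all 3 other genotypes. It had 0.18 and 0.33 CPM in N2, 0.16 and 0.11 CPM in *met-2*, 0.42 and 0.77 CPM in *set-25*, and 3.44 and 3.75 CPM in the double mutant (log2 change 4.66 ± 0.62, edgeR adjusted p = 0.0013). The other 8 genes among the 12 largest rises were C29F3.3, T05A7.1, ZC513.14, C02F12.5, C45B2.1, the chloride channel subunit *glc-1*, the antibacterial factor *abf-5* and *nspe-7*, with log2 changes between 4.15 and 4.99. All 12 but *col-80* lost their call when either *met-2* library was left out.

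Among called genes with the same minimum of 50 counts, the falls were led by a gene that was nearly silent in N2. ZK1248.17 held 12.1 and 12.7 CPM in *met-2*, 0.063 and 0.26 CPM in *met-2 set-25* and 0.22 and 0.11 CPM in N2, a log2 change of -6.32 ± 0.52 (edgeR adjusted p = 0.000365). 5 of the 12 largest falls were cuticle collagens. *col-164* fell from 76.5 and 90.4 CPM to 2.11 and 5.21 CPM, *col-114* from 76.1 and 95.9 CPM to 3.72 and 5.63 CPM, and *col-45* from 63.5 and 78.9 CPM to 3.69 and 7.08 CPM. For these collagens the *set-25* libraries were lower still, at 0.12 to 0.96 CPM, and N2 lay at 14.5 to 44.6 CPM. *col-50* and *col-163* were the remaining collagens, and C13A2.4 and C13A2.9 were a pair of genes from one stretch of chromosome V. When *met-2* replicate 2 was left out, *col-45*, *col-50*, *col-163*, C13A2.4, C13A2.9, H41C03.3, K09E2.1 and WBGene00021577 lost their call, whereas ZK1248.17, *srt-42*, *col-114* and *col-164* kept it with any library left out. The calls of *col-163*, C13A2.4 and H41C03.3 were also lost without *met-2* replicate 1 or *met-2 set-25* replicate 1, that of C13A2.9 without *met-2* replicate 1, and that of K09E2.1 without either *met-2 set-25* library.

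**Figure D2:**
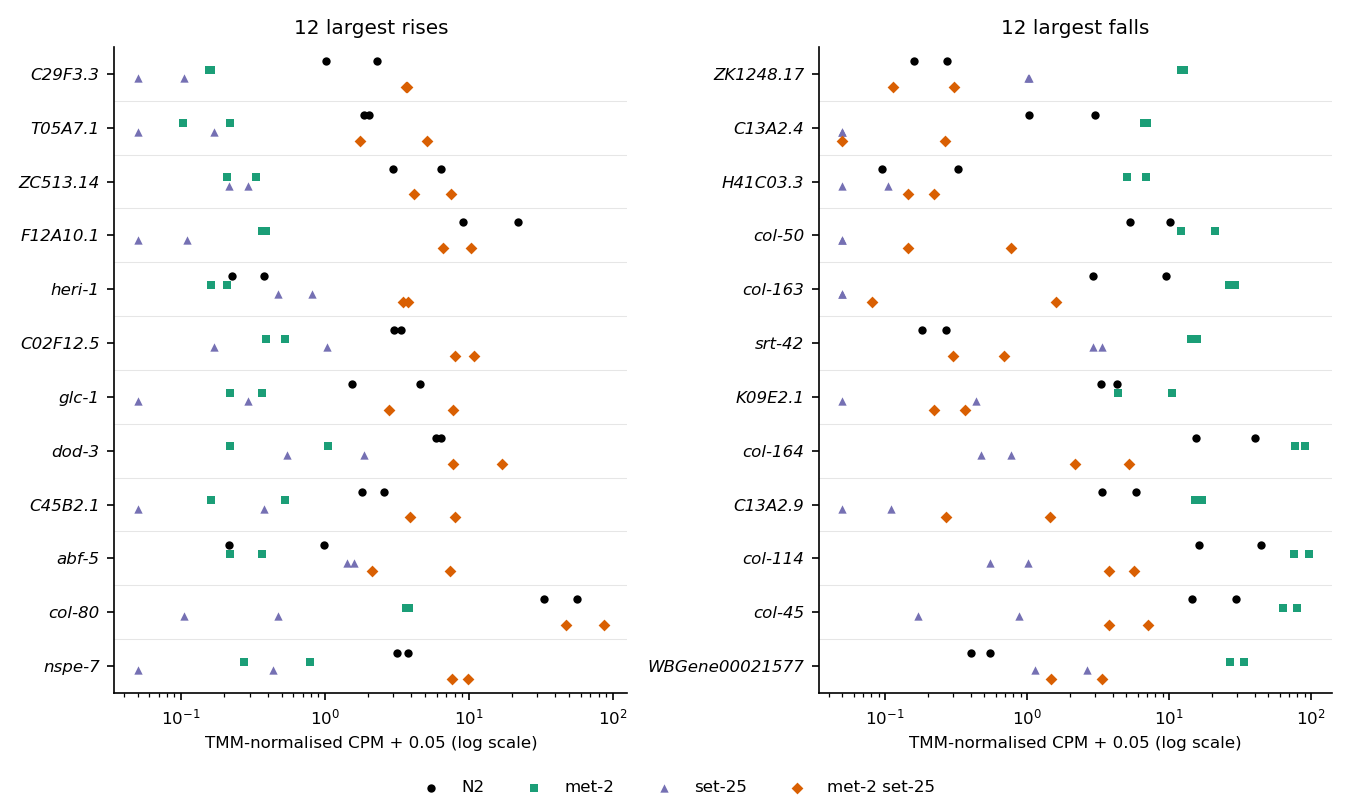
TMM-normalised CPM plus 0.05 on a log scale for the 12 largest rises (left) and the 12 largest falls (right) in seam cells of the double mutant over *met-2*, with 1 point per library and 2 libraries per genotype. Both sets were taken from called genes that averaged at least 50 counts over the 4 libraries. For most rises the double mutant lies near N2 and above both single mutants, and for the falls *met-2* (green squares) is the highest genotype.

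Collagens that shape the body were often lower. Of 19 tested genes known for Dpy, Rol, Sqt, Lon or Bli phenotypes, 9 (47.4%, beside 3.74% of all genes) were lower and none was higher by edgeR or DESeq2, 2 had p under 0.05 before adjustment in the higher direction, and their median log2 change was -0.69 against 0.10 over all genes. *lon-3*, which sets body length, fell from 7724 and 7716 CPM to 2089 and 2797 CPM (log2 change -1.66 ± 0.16, edgeR adjusted p = 0.000498). The N2 libraries lay between the mutants at 4919 and 4736 CPM, and *set-25* was the highest genotype at 9882 and 8962 CPM. *sqt-3* fell from 25980 and 25850 CPM to 7563 and 10650 CPM and *rol-8* from 8556 and 8422 CPM to 2575 and 3642 CPM. *sqt-1*, *sqt-2*, *rol-6*, *dpy-4*, *dpy-5* and *dpy-13* were the other members that fell, with log2 changes between -1.216 and -1.434. The furrow collagens *dpy-2*, *dpy-3*, *dpy-7*, *dpy-8*, *dpy-9* and *dpy-10* did not pass the test, with values between -0.29 and 0.60. Of the remaining members that were not called, *bli-2* stood at -0.69, *rol-1* at 0.61, *dpy-14* at 1.38 and *dpy-17* at 2.49 (edgeR adjusted p = 0.0938, from 1.53 and 0.73 CPM to 10.3 and 2.43 CPM). The replicate block called 1 member higher. Without *met-2* replicate 2 only 1 of the 9 calls was left, without either *met-2* replicate 1 or *met-2 set-25* replicate 1 there were 5, and without *met-2 set-25* replicate 2 there were 8.

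The larger family of collagens named *col* split in both directions. Of 120 tested members 18 were higher and 24 were lower, against 5.18% and 3.74% of all genes, and their median was 0.02. This median turned to 0.38 with library totals and to -0.05 with the size factors of DESeq2 in edgeR, so the sign of the family's median depended on the scaling, and library totals also turned the calls to 24 higher and 16 lower. *col-142* rose from 4.175 and 4.002 CPM to 68.7 and 39.2 CPM (log2 change 3.72 ± 0.30, edgeR adjusted p = 0.000365), and *col-91* rose from 1.797 and 1.747 CPM to 25.4 and 21 CPM. In *set-25* alone both were under 1 CPM, and none of the 120 members was higher and 46 were lower in *set-25* than in N2. Without *met-2* replicate 2 the calls in the double mutant fell to 4 higher and 7 lower, and the other single libraries left out gave 4 to 9 higher and 11 to 15 lower. *skpo-2*, a peroxidase gene on the list of collagen processing enzymes, was the 1 member of 14 that was called there, and fell from 155 and 157 CPM to 43.1 and 44.6 CPM.

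Moulting genes moved in both directions. Of 44 tested, 8 (18.2%, beside 3.74% of all genes) were lower and 3 (6.82%, beside 5.18%) were higher, and library totals gave 5 lower and 4 higher. Over all members 23 had both *met-2 set-25* libraries above both *met-2* libraries and 13 had both below. Over all 12591 genes tested these numbers were 5021 and 3864. The median of the moulting genes, 0.15, became 0.53 with library totals. *mlt-10*, a marker of the moult, had the smallest adjusted p of all genes, with 364 and 339 CPM in *met-2* and 56.1 and 59.7 CPM in *met-2 set-25* (log2 change -2.60 ± 0.12, edgeR adjusted p = 7.98e-05). Its N2 libraries were at 356 and 332 CPM and its *set-25* libraries at 590 and 637 CPM, so only the double mutant was low. *mlt-9* fell from 2188 and 2163 CPM to 595 and 714 CPM and *bed-3*, a zinc finger gene required for moulting, from 277 and 294 CPM to 71.0 and 95.1 CPM. The nuclear receptor genes *nhr-25* and *nhr-41*, the patched-related genes *ptr-11* and *ptr-18*, and *qua-1* were the other members that fell, by 1.00 to 1.51 on the log2 scale. The members that rose were *osm-11*, a Notch co-ligand gene, from 214 and 201 CPM to 593 and 704 CPM, the kinase gene *nekl-3* and *myrf-1*, which encodes a membrane-bound transcription factor needed for moulting. *myrf-1* lay close to both thresholds, with a log2 change of 1.02 ± 0.22 (SE; edgeR adjusted p = 0.00976). Its call was lost with the size factors of DESeq2 in edgeR, with DESeq2 itself and in a fit of the 4 libraries alone. The receptor gene *nhr-23*, which drives moulting, stood at 169 and 157 CPM against 305 and 298 CPM and did not pass the test (edgeR adjusted p = 0.127), and *lin-42*, the period-like timer of the moult, stood at 196 and 234 CPM against 219 and 245 CPM (edgeR adjusted p = 0.73). The phase of each sample within the moulting cycle is not in the labels, and its part in these differences was not tested. Leaving out *met-2* replicate 2 left 3 lower genes and 1 higher, and leaving out each of the others left 6 or 7 lower and 1 or 2 higher.

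Hedgehog-related genes, which encode secreted proteins and patched-like receptors of the worm epidermis, held 15 lower (22.1%, beside 3.74% of all genes) and 6 higher (8.82%, beside 5.18%) members of 68. With library totals there were 10 of each, and the median of -0.01 became 0.36. Among the ligand-like genes *grl-5* fell from 1583 and 1567 CPM to 350 and 504 CPM, *grl-15* from 1992 and 1883 CPM to 458 and 660 CPM, and *wrt-2* from 2115 and 2113 CPM to 642 and 878 CPM. Among the receptor-like genes *ptr-16* fell from 90.2 and 100 CPM to 21.5 and 25.3 CPM, and *ptc-3* fell from 392 and 406 CPM to 144 and 184 CPM. *ptr-25* rose from 17.4 and 13.8 CPM to 90.3 and 80.2 CPM, and *grl-4* from 23.6 and 24.7 CPM to 82.9 and 124 CPM. Without *met-2* replicate 2 there were 4 lower members and none higher, and without each other library there were 10 or 11 lower and 1 or 2 higher.

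Several heat shock genes were lower in the double mutant. Of 14 tested, 7 (50%, beside 3.74% of all genes) were lower, and none was higher by edgeR, also at an unadjusted p under 0.05, or by DESeq2, with a median of -0.99 that stayed below 0 under both other scalings. *hsp-16.2*, a small heat shock gene, fell from 1966 and 1903 CPM in *met-2* to 349 and 689 CPM in the double mutant (log2 change -1.90 ± 0.28, edgeR adjusted p = 0.00187). Its N2 libraries held 680 and 829 CPM and its *set-25* libraries 2309 and 2426 CPM, so both single mutants lay above N2 and the double mutant did not. *hsp-16.41* had the same order, with 990 and 1188 CPM in N2, 2529 and 2473 CPM in *met-2*, 3414 and 3792 CPM in *set-25* and 493 and 895 CPM in the double mutant. The chaperone genes *hsp-90*, *hsp-110* and *hsp-70* fell by 1.11, 1.08 and 1.60, and the *hsp-70* family members F44E5.4 and F44E5.5 fell by 1.61 and 1.57. *aip-1*, an arsenite-inducible proteasome factor outside the list that was picked after its values were seen, fell from 691 and 620 CPM to 141 and 218 CPM. The heat shock factor gene *hsf-1* itself stood at a log2 change of -0.12 (edgeR adjusted p = 0.517), and the endoplasmic reticulum chaperone *hsp-3* at 0.10 (edgeR adjusted p = 0.691). The *hsp-16* and *hsp-70* genes have close copies, and reads that aligned to several copies were not counted. Leaving out *met-2* replicate 1 left 2 calls and leaving out *met-2* replicate 2 left 1, whereas 4 and 7 remained without *met-2 set-25* replicate 1 and replicate 2.

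Many genes for epidermal defence were higher. Of 24 tested antimicrobial peptide genes of the epidermis, 10 (41.7%, beside 5.18% of all genes) were higher and 1 (4.17%, beside 3.74%) was lower, and the median was 2.01. The *nlp* peptides of the cluster on chromosome V made up 5 of them. *nlp-29*, which is induced by fungal infection and wounding, rose from 29.6 and 22.7 CPM to 108 and 93.5 CPM, and *nlp-31* from 11.1 and 9.08 CPM to 102 and 59.9 CPM (log2 change 3.01 ± 0.35, edgeR adjusted p = 0.000752). N2 lay at 65.3 and 123 CPM for *nlp-31* and *set-25* at 1.69 and 1.48 CPM, so the double mutant overlapped N2 and both single mutants lay below it. *nlp-33* rose from 73.1 and 65.2 CPM to 350 and 287 CPM. The caenacin gene *cnc-3* went the other way, from 269 and 258 CPM to 90.8 and 105 CPM (log2 change -1.43 ± 0.13, edgeR adjusted p = 0.000379), while *cnc-8* rose from 94.7 and 91.7 CPM to 329 and 425 CPM. Without *met-2* replicate 2 there were 3 higher members, and 5 to 8 without each of the others. Of 65 C-type lectin genes 4 (6.15%, near the 5.18% of all genes) were higher and none was lower by edgeR, with a median of 1.97. That count depended on the setting, with 17 higher and 1 lower by DESeq2, 12 higher with library totals and 0 to 2 higher with 1 library left out, and with p under 0.05 before adjustment it was 32 and 4.

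Genes of detoxification and metabolism rose more often than they fell. Of 129 tested cytochrome P450, UDP-glucuronosyltransferase and glutathione S-transferase genes, 19 (14.7%, beside 5.18% of all genes) were higher and 2 (1.55%, beside 3.74%) were lower, with a median of 1.07. *ugt-41* rose from 3.44 and 1.64 CPM to 32.1 and 23.1 CPM and *cyp-34A9* from 1.32 and 0.51 CPM to 5.52 and 8.36 CPM. *gst-35* fell from 14.5 and 17.1 CPM to 3.19 and 2.77 CPM, and *cyp-42A1* fell by 1.18. Leaving out *met-2* replicate 2 gave 1 higher member, and each of the others 5 to 13. Among 19 genes of insulin signalling and its DAF-16 outputs 4 (21.1%) were higher and 1 (5.26%) was lower. The isocitrate lyase gene *icl-1* (the enzyme of the glyoxylate cycle) rose from 114 and 99.2 CPM to 493 and 381 CPM, the catalase gene *ctl-2* from 2.33 and 1.01 CPM to 12.1 and 12.2 CPM, and the metallothionein gene *mtl-1* from 1.216 and 2.987 CPM to 7.95 and 32.2 CPM. The kinase and receptor genes *daf-2*, *age-1*, *akt-1* and *akt-2* and the factor gene *daf-16* did not pass the test, with log2 changes between -0.19 and 0.24. With 1 library left out 1 to 3 of this list were higher. *mtl-1*, *mtl-2* and *cpr-1* are genes of the intestine too, and *cpr-1* stood at 55.9 CPM in *met-2 set-25* replicate 1 and 242 CPM in replicate 2, over 15.01 and 6.369 CPM in *met-2*. These 3 genes lost their call without either *met-2* library or without *met-2 set-25* replicate 2, and *ctl-2* without *met-2* replicate 2 or *met-2 set-25* replicate 1.

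Some histone and neuropeptide genes were higher. Of 35 tested histone genes 7 (20%, beside 5.18% of all genes) were higher and none was lower by edgeR or DESeq2, 1 had p under 0.05 before adjustment in the lower direction, and the list ran from -0.46 to 1.65 with a median of 0.79. Library totals gave 12 higher. The linker histone genes *hil-3* and *hil-2* rose from 140 and 145 CPM to 420 and 390 CPM and from 124 and 130 CPM to 325 and 350 CPM. The core histone genes *his-60*, *his-31*, *his-32* and *his-4* rose by 1.26 to 1.60, and since many histone genes are near copies their split between copies is uncertain. Only 35 of 79 histone genes passed the filter in these libraries of polyadenylated RNA, so the values do not stand for all histone mRNA. Of 104 neuropeptide genes 14 (13.5%) were higher and none was lower by edgeR, while DESeq2 gave 20 and 1 and the lowest member stood at -2.80. At an unadjusted p under 0.05 in edgeR 44 of them were higher and 2 were lower. This list also holds the epidermal *nlp* peptides. *flp-17* rose from 2.38 and 3.04 CPM to 25.9 and 21.1 CPM. Summed neuron markers stood at 358 and 378 CPM in *met-2* and 453 and 401 CPM in *met-2 set-25*, and 1 of 18 was called. Their median change was 0.77, beside 0.10 over all genes. At an unadjusted p under 0.05 in edgeR 10 of the 18 were higher and 2 were lower, and library totals called 7 higher. With 1 library left out 2 to 4 histone and 3 to 11 neuropeptide genes were called. The hypodermal GATA factor gene *elt-3* was higher, from 12.1 and 9.08 CPM to 88.0 and 60.3 CPM (log2 change 2.81 ± 0.40, edgeR adjusted p = 0.0017), with N2 at 51.6 and 49.1 CPM, a call that was kept without *met-2 set-25* replicate 2 only.

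**Figure D3:**
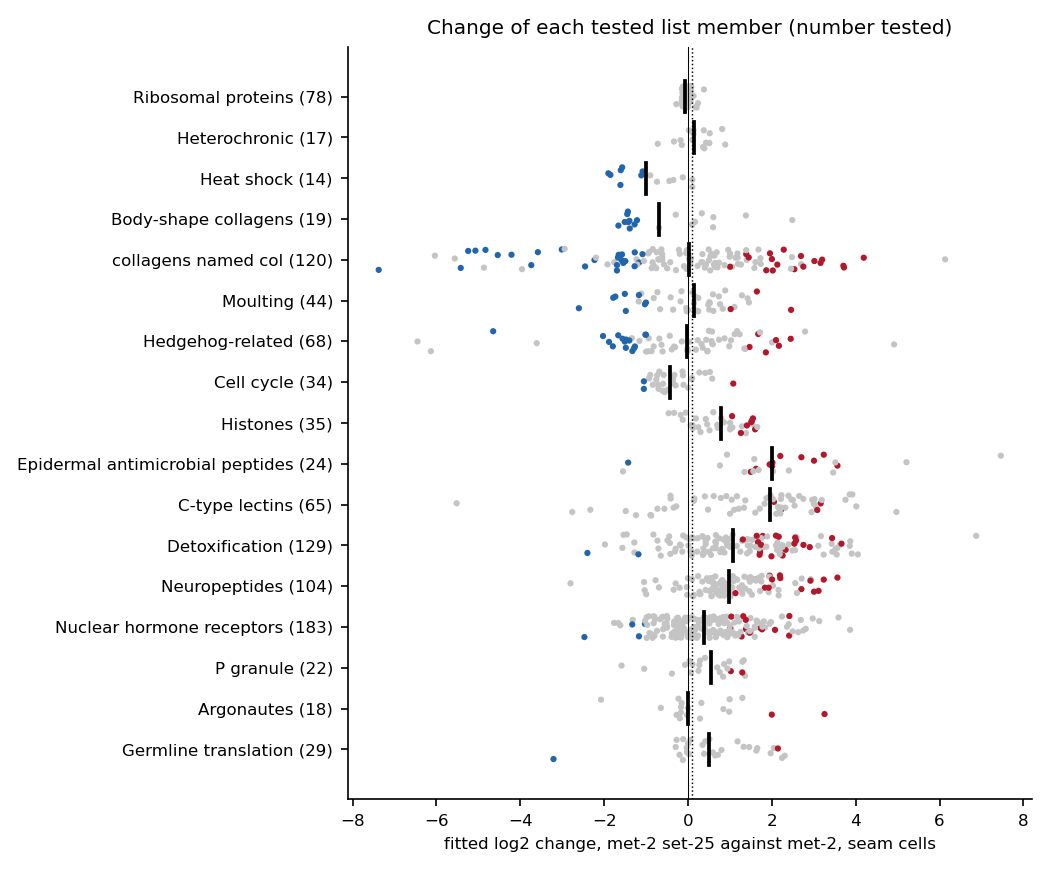
Fitted log2 change of *met-2 set-25* over *met-2* for each tested member of 17 gene lists, with 1 point per gene (red higher, blue lower, grey not called), a black bar at each list's median and a dotted line at the median of all genes (0.10). Heat shock genes and body-shape collagens lie to the left, epidermal antimicrobial peptides to the right, and the *col* collagens and hedgehog-related genes spread to both sides.

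Some germline genes were higher in *met-2 set-25* than in *met-2*, and their number depended on the scaling. *glh-1*, which encodes an RNA helicase of the P granules, rose from 109 and 97.3 CPM in *met-2* to 215 and 204 CPM in the double mutant (log2 change 1.02 ± 0.15, edgeR adjusted p = 0.00181), over 18.6 and 15.9 CPM in N2 and 21.6 and 27.9 CPM in *set-25*. The call of *glh-1* was lost with the size factors of DESeq2 in edgeR, where its log2 change was 0.96, with DESeq2 itself, in a fit of the 4 libraries alone and when any library but *met-2 set-25* replicate 2 was left out. *lotr-1*, another P granule gene, rose from 24.4 and 19.9 CPM to 54.9 and 53.8 CPM over about the same levels in N2 and *set-25* (3.50 to 5.77 CPM), a call that was kept without *met-2 set-25* replicate 2 but with no other library left out. *pgl-1* stood at 43.5 and 42.2 CPM against 78.3 and 77.2 CPM (log2 change 0.86 ± 0.20, edgeR adjusted p = 0.0151) and *wago-4* at 38.9 and 39.6 CPM against 79.0 and 114 CPM (1.30 ± 0.28, edgeR adjusted p = 0.0112), and neither was called. With library totals both were called, at 1.24 and 1.66, and *wago-4* was also called by DESeq2 (1.24, adjusted p = 0.000161), with no filter on low counts, with a mean of at least 50 counts and in the fit of the 4 libraries alone. F15D4.5 and *enu-3.2*, which were at 9.42 to 15.1 and 3.46 to 4.58 CPM in N2, held 474 and 451 CPM and 217 and 214 CPM in *met-2* and 499 and 681 CPM and 137 and 173 CPM in *met-2 set-25*, and neither passed the test. In all, 2 of 22 P granule genes (9.09%), 2 of 18 Argonaute genes (11.1%), 2 of 16 piRNA genes (12.5%) and 2 of 33 meiotic chromosome genes (6.06%) were higher. So was 1 of 29 germline translation genes (3.45%), and the share of all genes was 5.18%. In the other direction 1 meiotic and 1 germline translation gene were lower. Library totals gave 6, 6, 6, 5 and 2 higher. The medians of the lists were 0.55, -0.01, 0.20, 0.73 and 0.51, beside 0.10 over all genes. Without *met-2* replicate 2 only the 2 Argonaute calls were left among these lists, and without *met-2* replicate 1 or *met-2 set-25* replicate 1 these and 1 meiotic call.

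The Argonaute genes *wago-1* and *ppw-2* were high in the double mutant and low in the other 3 genotypes. *wago-1*, whose product binds secondary small RNAs of the germline, stood at 8.31 and 5.94 CPM in N2, 9.41 and 10.6 CPM in *met-2*, 8.62 and 8.07 CPM in *set-25* and 34.9 and 45.1 CPM in *met-2 set-25* (log2 change 1.999 ± 0.21, edgeR adjusted p = 0.000578). *ppw-2*, from the same WAGO branch, held 7.64 and 3.52 CPM in N2, 4.49 and 5.30 CPM in *met-2*, 6.27 and 5.82 CPM in *set-25* and 38.7 and 55.0 CPM in the double mutant (3.26 ± 0.34, edgeR adjusted p = 0.000578). For both genes the effect of losing SET-25 differed between the *met-2* and N2 backgrounds, by an interaction of 1.78 for *wago-1* (edgeR adjusted p = 0.00167) and 3.15 for *ppw-2* (edgeR adjusted p = 0.000929). Both calls held in each of the 13 alternatives. The other Argonautes of the list, such as *alg-1*, *rde-1*, *hrde-1* and *nrde-3*, were not called by edgeR, whereas DESeq2 called 3 members higher, *wago-4* among them, and library totals 6. The meiotic gene *zhp-2* was raised in *met-2* already, with 0.31 and 0.33 CPM in N2, 5.81 and 4.11 CPM in *met-2* and 13.1 and 12.5 CPM in *met-2 set-25*, and lost its call whenever a library was left out.

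Some genes that were high in *met-2* returned towards N2. *srt-42*, named as a chemoreceptor gene, stood at 0.13 and 0.22 CPM in N2, 14.2 and 15.6 CPM in *met-2*, 3.31 and 2.86 CPM in *set-25* and 0.25 and 0.64 CPM in *met-2 set-25* (log2 change -5.09 ± 0.41, edgeR adjusted p = 0.000365). *bath-34*, a gene of the BTB and MATH domain family, held 2.31 and 1.37 CPM in N2, 58.1 and 54.3 CPM in *met-2*, 25.7 and 25.2 CPM in *set-25* and 6.53 and 12.8 CPM in the double mutant. The germline genes *nos-1* and *zim-3* were of this kind, at low levels: *nos-1* fell from 4.54 and 3.21 CPM to 0.44 and 0.38 CPM and *zim-3* from 3.49 and 3.16 CPM to 0.66 and 0.60 CPM, and both lost their call with any library left out. *scp-1* fell from 450 and 409 CPM to 92.7 and 123 CPM, with N2 at 55.2 and 50.1 CPM. Counted after the values were seen, 288 tested genes had both *met-2* libraries over 4 times both N2 libraries. Of these 38 were lower and 10 were higher in *met-2 set-25*, beside 471 and 652 of all 12591 genes. The same *met-2* libraries enter both sides of that count, and genes chosen for high values there are more apt to fall, so it is a description only. In muscle 2 of the 38 had *met-2* over 4 times N2.

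Genes that rose in *met-2* muscle form a list that shares no library with the seam cell contrast. In muscle 199 genes (2.17% of those tested) were higher and 6 (0.0655%) were lower in *met-2* than in N2, and 182 of the 199 were tested in seam cells. Of these, 18 were higher and 1 was lower in *met-2 set-25* than in *met-2* seam cells, beside 5.18% and 3.74% of all genes, and their median change was 0.33, with a range from -1.66 to 2.32.

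The change from N2 to *set-25* seam cells went the opposite way for most of the genes that rose. In *set-25* against N2, 126 genes (1%) were higher and 1218 (9.67%) were lower. Of the 652 genes higher in *met-2 set-25* than in *met-2*, 509 were lower and none was higher in *set-25* than in N2, although the 2 contrasts have no library in common. The median level of these 652 genes was 11.7 CPM in N2, 3.81 CPM in *met-2*, 1.64 CPM in *set-25* and 16.6 CPM in *met-2 set-25*. Of the 471 lower genes 41 were higher and 17 were lower in *set-25* than in N2, and their median level was 54.1 CPM in N2, 83.5 CPM in *met-2*, 82.5 CPM in *set-25* and 30.5 CPM in the double mutant. Across all 12591 genes the change in one background and that in the other had a Pearson correlation of -0.55, over genes that are not independent replicates. The test of the difference itself, the interaction of *met-2* and *set-25*, called 2047 genes (16.3%) with a higher and 1400 (11.1%) with a lower effect in *met-2* than in N2. Its calls in either direction included 628 of the 652 and 390 of the 471 genes, beside 3447 of all 12591. That overlap is partly built in, because the interaction holds the 4 libraries of the contrast that chose these genes. *icl-1* is an example, with 653 and 846 CPM in N2, 114 and 99.2 CPM in *met-2*, 46.4 and 34.6 CPM in *set-25* and 493 and 381 CPM in *met-2 set-25*. *pnp-1*, a purine nucleoside phosphorylase gene picked after its values were seen, held 20.6 and 19.5 CPM, 2.96 and 1.47 CPM, 1.57 and 1.70 CPM, and 28.8 and 22.7 CPM in the same order. The number of genes with at least 10 counts moved with this pattern, at 11749 and 10927 in N2 and 9778 and 9810 in *set-25*, with the *set-25* libraries below all others and the double mutant above all others, and its part was not tested. Scaling to library totals gave 3331 and 464 genes in the interaction, and leaving out *met-2* replicate 2 gave 1303 and 742. The lower genes of the interaction also dropped to 858 without *met-2* replicate 1 and to 930 without N2 replicate 1.

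**Figure D4:**
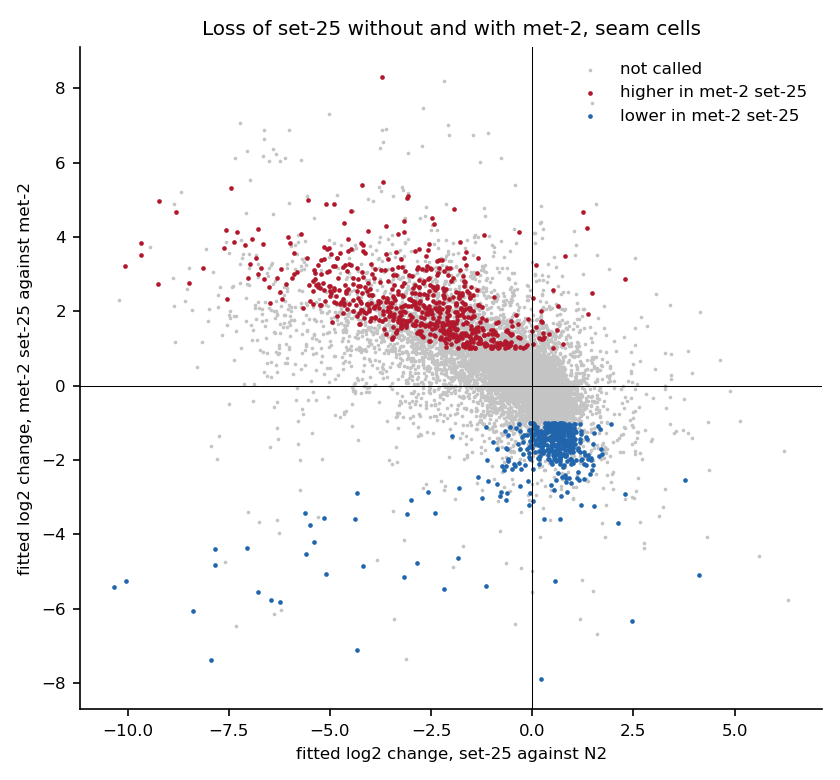
Fitted log2 change in seam cells when *set-25* was lost from N2 (x axis) and when it was lost from *met-2* (y axis), 1 point per tested gene, for 2 contrasts that share no library. Most of the 652 genes higher in *met-2 set-25* (red) lie left of 0 on the x axis, and most of the 471 lower genes (blue) lie slightly right of 0.

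The same contrast in muscle called no gene. Of 9167 genes tested in muscle 0 (0%) were higher and 0 (0%) were lower in *met-2 set-25* than in *met-2* by edgeR, where 363 and 302 had an unadjusted p under 0.05, and DESeq2 called 19 and 11. In muscle *set-25* stood at 11.41 and 9.045 CPM in *met-2* and 11.43 and 4.377 CPM in *met-2 set-25* (log2 change -0.37, edgeR adjusted p = 0.912). *met-2* stood at 25.8 and 25.6 CPM in *met-2* and 40.4 and 38.2 CPM in the double mutant, beside 41.2 and 46.7 CPM in N2. Double mutant muscle thus did not show the lower levels of both target genes seen in seam cells, and the reason was not tested. Of the 652 genes that rose in seam cells 400 were tested in muscle, with a median change of -0.17 there, and across 8754 genes tested in both the correlation of the changes was -0.07. The difference between tissues itself passed its test for 27 genes with a higher (0.21%) and 41 with a lower (0.318%) change in seam cells. *hsp-16.2* stood at 229 and 189 CPM in *met-2* and 342 and 352 CPM in double mutant muscle, and *hsp-16.41* at 512 and 455 CPM and 998 and 647 CPM, against the fall in seam cells. *mlt-9* was at 4.13 to 7.28 CPM in muscle of these genotypes, and *unc-54*, the muscle myosin heavy chain, at 41370 and 39130 CPM in *met-2* and 57480 and 51070 CPM in double mutant muscle, while in seam cells it fell from 4105 and 4112 CPM to 1458 and 1944 CPM. *glh-1* was at 1794 and 1664 CPM in *met-2* muscle and *wago-1* at 82.3 and 78.7 CPM, so *wago-1* was raised in *met-2* muscle already, over 7.07 and 2.05 CPM in N2 muscle. Strain, sort and experiment follow the tissue and cannot be told apart from it. With 1 library left out the tissue counts were 2 to 13 higher and 5 to 21 lower.

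**Figure D5:**
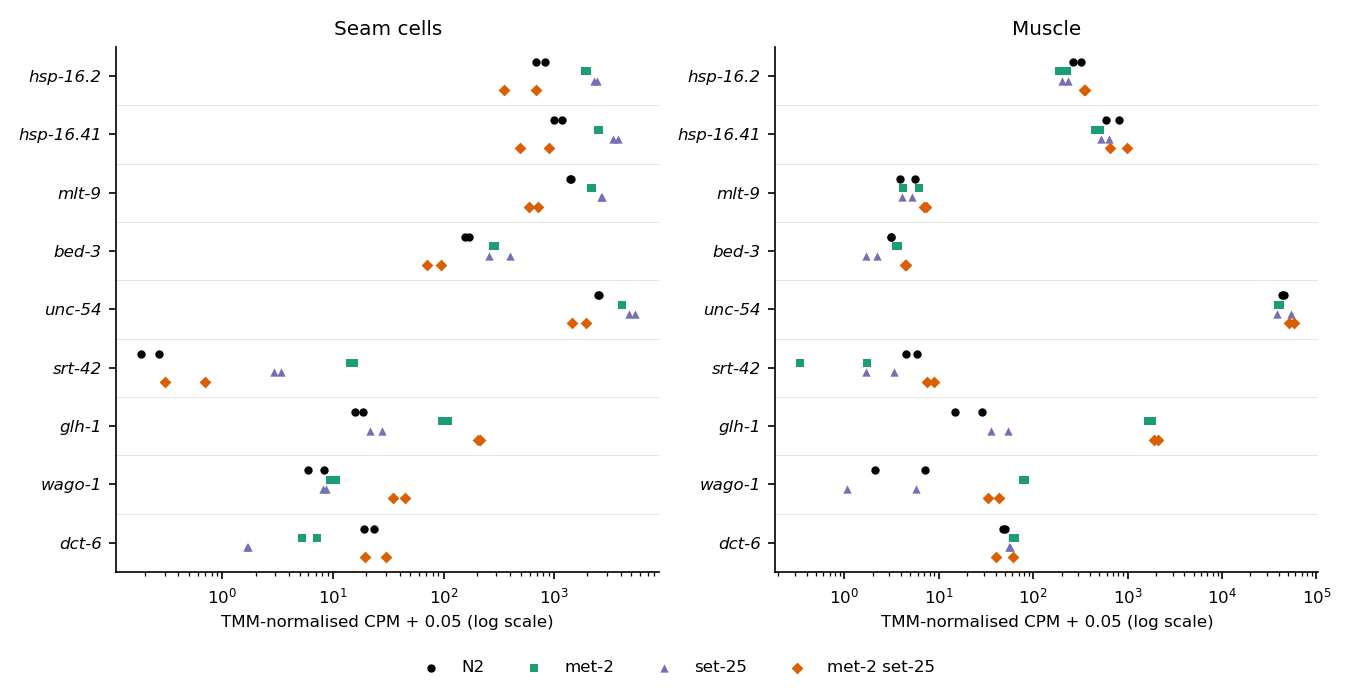
TMM-normalised CPM plus 0.05 on a log scale in seam cells (left) and body wall muscle (right) for 9 genes, 1 point per library and 2 per genotype. In seam cells *hsp-16.2*, *hsp-16.41*, *mlt-9* and *bed-3* have their lowest mean in *met-2 set-25* (orange diamonds) and *wago-1* is highest there, while in muscle *wago-1* is highest in *met-2*.

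Called genes lay on all 6 chromosomes. Chromosome V had the largest share of higher genes (7.17% of 2456) and chromosome I the smallest (3.38% of 2070), and the shares of lower genes ran from 2.21% on chromosome III to 4.44% on chromosome V. 18 runs of at least 3 neighbouring tested genes were called in the same direction. The longest held 5 genes each, on chromosome V: *nlp-31*, *nlp-30*, *nlp-29*, *nlp-28* and *nlp-27*, which rose, and C13A2.6, C13A2.5, C13A2.4, C13A2.3 and C13A2.1, which fell. On chromosome IV the S-adenosylmethionine synthetase genes *sams-4* and *sams-3* fell with their neighbours C06E7.2 and C06E7.4, *sams-4* from 877 and 927 CPM to 183 and 214 CPM. A pair of runs held heat shock genes with other genes that fell: *srt-42* is the next tested gene to *hsp-16.2* and *hsp-16.41*, and C47E8.4 and C47E8.11 flank *hsp-90*. C47E8.11 stood at 1.11 and 0.77 CPM in N2, 10.7 and 8.68 CPM in *met-2*, 4.52 and 4.83 CPM in *set-25* and 1.17 and 1.41 CPM in *met-2 set-25*. Reads of neighbouring or overlapping genes may not be separable in these libraries, since the strand of the reads is uncertain, and that was not tested.

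Most other lists had no calls or shares nearer those of all genes. At an unadjusted p under 0.05 in edgeR, 2837 of all 12591 genes were higher and 2149 were lower. None of 78 ribosomal protein genes was called by edgeR or DESeq2, 1 was higher at an unadjusted p under 0.05, and all lay between -0.28 and 0.38 on the log2 scale. Of 17 heterochronic genes, which time seam cell divisions, none was called by edgeR or DESeq2, where 5 positive and 2 negative changes had p under 0.05 before adjustment. None of 5 *enu-3* genes was called by either tool, with 3 lower at an unadjusted p under 0.05. None of 11 *pals* genes was called by edgeR, with 1 higher at an unadjusted p under 0.05, while DESeq2 and the replicate block each called 1 higher. Among 34 cell cycle genes the inhibitor *cki-1* rose from 21.3 and 20.8 CPM to 45.4 and 43.6 CPM, and the Aurora B kinase gene *air-2* and the replication licensing gene *mcm-6* fell by 1.05 each, all 3 of which lost their call when any library was left out. The median of that list was -0.44, and -0.06 with library totals. The calls of *air-2* and *mcm-6* were also lost with library totals, with the study's fold rule and with a mean of at least 50 counts. Apart from *set-25*, none of the 18 genes for H3K9 methylation and heterochromatin was called by edgeR or DESeq2. Of 183 nuclear hormone receptor genes 12 (6.56%) were higher and 4 (2.19%) were lower, beside 5.18% and 3.74% of all genes, and library totals gave 27 and 0. Of 62 chemoreceptor genes 1 was higher and 2 were lower, and of 57 *fbxa* genes 2 were higher and 1 was lower. The small *dct* and *dod* lists had larger shares of higher genes, at 2 of 9 (22.2%) and 1 of 7 (14.3%). None of either was lower, and their medians were 1.85 and 1.70. Of 21 V-ATPase genes 1 (4.76%) was higher and none was lower, with a median of 0.42. At an unadjusted p under 0.05 in edgeR 17 of the 21 were higher and 1 was lower.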

How the data were processed

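Sorted seam cells and muscle cells of L3 larvae were measured as Smart-Seq2 libraries of polyadenylated RNA, whereas the series text also names ribosomal RNA depletion. The authors aligned reads to ce10 with hisat2 through QuasR 1.22.0, counted unique reads in WS220 exons in the annotated orientation, and deposited raw counts of 20392 genes, 1 column per library, with an exonic width that was not used in any test. Smart-Seq2 usually does not retain strand, so overlapping and antisense genes are uncertain. 19182 IDs (94.1%) were matched to a current name, and chromosome and gene order were read from WBcel235.

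Counts were tested with edgeR 4.0.16 in R 4.3.3 (glmQLFit and glmQLFTest, TMM factors, filterByExpr, no covariate) over the 8 seam cell libraries, the 8 muscle libraries or, for the tissue difference, all 16 of these, with 2 libraries per group. Interactions had no fold threshold. DESeq2 1.42.0, other scalings and filters, the study's fold rule, a replicate block and each library left out were alternatives. SE was taken as the absolute fitted change over the root of F. A count of 3 or fewer in a library was treated as the floor, and 19 higher genes had both *met-2* libraries and 7 lower genes both *met-2 set-25* libraries there, which left the medians at 2.09 and -1.51 when such genes were set to their bound. The floor covers counting error only, since amplified reads with no molecular identifier cannot be counted as separate molecules. Replicates were not duplicates (chi-square per degree of freedom between the 2 libraries of a group 8.01 to 82.1). With 2 libraries per group an exact permutation test could not reach the threshold, so only models across all genes were used. The test was checked on simulated counts.

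Named genes were the targets, the 12 largest rises and 12 largest falls among called genes that averaged at least 50 counts over the 4 libraries, up to 3 called members per list in each direction and 12 fixed examples. The groups and the 31 gene lists and 10 marker lists were chosen with earlier results of these data known. The degron and non-muscle samples were not used here.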

Additional observations from a re-analysis of the deposited data

Results flagged for a closer look

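The change from *met-2* to *met-2 set-25* differed between seam cells and muscle for 27 genes with a higher and 41 genes with a lower change in seam cells, by the interaction test of edgeR at an adjusted p under 0.01. Among the genes named by the fixed rule, 8 passed it. The difference of the log2 changes, seam cells minus muscle, was -8.42 for ZK1248.17 (edgeR adjusted p = 0.00439) and -8.13 for *srt-42* (edgeR adjusted p = 0.000711). It was -2.64 for *hsp-16.2* (edgeR adjusted p = 0.00233) and -2.63 for *hsp-16.41* (edgeR adjusted p = 0.00439). For the moulting genes *mlt-9* and *bed-3* it was -2.2 and -2.1 (edgeR adjusted p = 0.0028 and 0.00785), and for the myosin gene *unc-54* -1.71 (edgeR adjusted p = 0.00919). *dct-6* had a higher change in seam cells, by 2.31 (edgeR adjusted p = 0.00581). In muscle *mlt-9* and *bed-3* were at low levels, at 4.13 to 7.28 CPM and 3.43 to 4.42 CPM over the 4 libraries of this contrast. ZK1248.17 was at 0.072 to 0.58 CPM in those muscle libraries, near the floor. Groups of 2 libraries were too small for a search for single outlying samples.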

How the results depend on the processing

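The seam cell contrast gave 652 higher and 471 lower genes, and 560 and 531 with size factors of DESeq2 in edgeR, 949 and 617 with DESeq2 and 833 and 567 in a fit of the 4 libraries alone. Library totals gave 1360 and 248, no filter on low counts 1443 and 633, the study's fold rule 290 lower and no fold threshold 795 lower. Of the 1443 genes 7 were outside the filtered table, so the larger number came mostly from genes that were tested in both fits. With 1 library left out the counts ran from 51 to 367 higher and from 172 to 362 lower. Deviations of same-numbered *met-2* and *met-2 set-25* libraries correlated at 0.02, and those of all pairs of the 4 seam cell groups at -0.069 to 0.14. With 2 libraries per group these values cannot decide whether same-numbered libraries were prepared together. The replicate block gave 634 and 465 genes.

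Of the interaction with *met-2* (2047 and 1400), library totals gave 3331 and 464, and 1 library left out 1303 to 2051 and 742 to 1451. Of the tissue difference (27 and 41), library totals gave 142 and 21, no filter 456 and 238, the replicate block 15 and 19, and 1 library left out 2 to 13 and 5 to 21. The muscle contrast (0 and 0) gave 32 and 25 without the filter, and *met-2* against N2 in muscle (199 and 6) gave 333 and 49 without it and 2 to 5 lower with 1 library left out. Of 111 named called genes, 40, 23, 51 and 68 kept their call without *met-2* replicate 1 and 2 and *met-2 set-25* replicate 1 and 2. *lin-42*, which was not called, ran from -0.022 to 0.24 with 1 library left out. The cause of these shifts was not tested. Genes under about 1 CPM rest on few counts, and their changes are the least precise.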
